A study of Mus musculus with 11 samples.

Results

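Markers of fetal liver and of liver tumours, 10 genes in all, were followed in adult mouse liver after forced activation of Notch signaling: Afp, H19, Igf2, Gpc3, Dlk1, Golm1, Cd24a, Tff3, Igf2bp3 and Lin28b. The genes were chosen by name, with earlier results of these data known. All 16 array probes that carry one of these 10 names through their RefSeq accession were taken, of 56605 probes on the array. The livers came from C57Bl6/J male mice, 8 weeks old at injection, that received adeno-associated virus serotype 8 (AAV8) at 6e+11 viral genomes in total and were examined on day 5. The GFP group (3 arrays) was given only the vector for green fluorescent protein (GFP). In the NICD1 group (3 arrays) and the NICD2 group (3 arrays) the NICD vector and the GFP vector made up 3e+11 viral genomes each, and in the NICD1&2 group (2 arrays) the NICD vectors did so without GFP vector. NICD stands for the Notch intracellular domain, of Notch1 in NICD1 and of Notch2 in NICD2, and every vector used the CMV promoter, which is not restricted to hepatocytes. No carcinogen is named for these mice, and the comparison asks how either Notch signal, alone or with the other, affects gene expression in liver that has no named injury.

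Afp and Igf2 encode secreted proteins of the fetal liver, H19 is the imprinted non-coding RNA beside Igf2, and Dlk1 is a membrane protein of hepatoblasts and a non-canonical ligand of the Notch family. Gpc3 is a heparan sulfate proteoglycan of the cell surface, Cd24a a surface glycoprotein of progenitor cells, Golm1 a Golgi membrane protein measured in serum of patients with hepatocellular carcinoma (HCC), and Tff3 a secreted trefoil peptide of mucosal and bile duct epithelium. Igf2bp3 and Lin28b are RNA-binding proteins of the embryo: Lin28b blocks the maturation of let-7 microRNAs, and Igf2bp3 is one of the messages that let-7 represses. Canonical Notch signaling works through the DNA-binding protein RBPJ, to which the cleaved intracellular domain binds in the nucleus.

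Because an RBPJ site is the route by which NICD would act directly, the 250 bases before each start site were searched for the core motif TGGGAA on both strands (TTCCCA on the other). RefSeq promoter entries (GRCm38.p6) were found for 7 of the 10 genes, in 10 entries. The motif lay in 2 of the 10 entries, both of them Igf2, while 21.6% of all 32851 entries of the same length held it. The promoter of Gpc3 (chrX:52613975-52614224, minus strand), the gene with the highest measured difference from GFP, is shown first, and the pair of Igf2 promoters that hold the motif follow (chr7:142666817-142667066 and chr7:142661272-142661521, minus strand). Each is written 5′ to 3′ along the gene, ending at the base before the start site, with the motif in capitals.
Gpc3: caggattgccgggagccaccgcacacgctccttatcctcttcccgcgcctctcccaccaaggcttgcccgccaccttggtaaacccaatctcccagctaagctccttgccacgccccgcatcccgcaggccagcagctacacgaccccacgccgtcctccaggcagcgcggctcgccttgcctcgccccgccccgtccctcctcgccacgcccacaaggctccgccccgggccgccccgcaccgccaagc
Igf2, first: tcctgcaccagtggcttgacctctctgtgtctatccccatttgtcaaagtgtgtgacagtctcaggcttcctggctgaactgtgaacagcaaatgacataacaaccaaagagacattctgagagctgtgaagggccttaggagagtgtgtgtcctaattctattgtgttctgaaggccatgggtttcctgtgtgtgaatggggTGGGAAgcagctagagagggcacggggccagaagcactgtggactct
Igf2, second: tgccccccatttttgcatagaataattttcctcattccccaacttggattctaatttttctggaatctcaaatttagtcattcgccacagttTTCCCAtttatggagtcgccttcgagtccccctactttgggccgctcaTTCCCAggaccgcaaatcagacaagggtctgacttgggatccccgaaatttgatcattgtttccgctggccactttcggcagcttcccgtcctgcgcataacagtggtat
The Gpc3 stretch, in which 71.6% of bases are G or C, has no match. The first Igf2 stretch has its match 47 bases before the start site and the second has matches 158 and 110 bases before it. These are letter matches and carry no measurement of binding.

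Signals are given as log2 values in which 0 is the 75th percentile of the array, and a probe counts as detected where the scanner software marked its spot well above background. Between 57.0% and 62.0% of spots were detected per array and 0 were saturated. The arrays came from both slides used: GFP 1, GFP 2, NICD1 1, NICD2 1, NICD2 2 and NICD1&2 1 were on slide 1 and the others on slide 2. GFP 1 had the lowest median signal over all probes, at -4.07, against -3.92 to -3.51 on the other arrays. The study's methods speak of several mice per group in general, but no source used here ties each array to a separate mouse, so the spread between arrays may be partly technical. All 8 hepatocyte markers checked, Alb among them, were detected on all 11 arrays. In whole liver, fewer cells of a type and less RNA per cell cannot be told apart. The Notch pathway target Nrarp was detected on 0 of 3 GFP arrays, 2 of 3 NICD1 arrays and all NICD2 and NICD1&2 arrays, so only bounds can be given. It was at least 4.65-fold higher with NICD2 and 7.07-fold with NICD1&2 than the GFP signals or the detection floor. The limma adjusted p of 0.104 and 0.0719 belong to the differences from the undetected GFP signals, not to these bounds. No fold is given for NICD1, where the undetected array, at -5.19, lay below GFP 3 at -4.60. The target Hes1 differed from GFP by -0.03, 1.64 and 1.36 with NICD1, NICD2 and NICD1&2 on the log2 scale (limma adjusted p = 0.994, 0.419 and 0.280). Without single arrays the NICD1 value of Hes1 ran from -0.37 to 0.33. The target Hey1 differed by 0.11, 0.29 and 0.71 and the target Heyl by -0.22, -0.43 and -0.64. Sox9 differed by 0.23, 0.84 and 1.16 with its brighter probe and by 0.053, 0.37 and 0.58 with its dimmer one. Without single arrays the Hey1 value with NICD1 ran from -0.018 to 0.24, the Heyl value with NICD1&2 from -0.94 to -0.34, the brighter Sox9 probe with NICD1&2 from 0.62 to 1.69, and the dimmer one with NICD1 from -0.067 to 0.18. In the same way Hey1 ran from 0.16 to 0.42 with NICD2 and Heyl from -0.42 to -0.10 with NICD1. The brighter Sox9 probe ran from 0.071 to 0.32 with NICD1 and the dimmer one from 0.14 to 0.52 with NICD2. None of these genes was called in limma, and Hes5 and Hey2 were not detected in any group. The probes of Notch1 and Notch2 differed from GFP by -0.37 to 0.29, but where they lie relative to the vector sequence is not given, so they do not check the labels.

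By the best probe of each gene, 6 of the 10 genes were detected on all arrays, 2 on some and 2 on none. For Lin28b and Igf2bp3 the probes disagreed. Afp, Golm1, Cd24a, Tff3, Igf2bp3 and Lin28b each had a probe detected on all 11 arrays, and Gpc3 was detected on 10, missing on GFP 2. Dlk1 was detected on 2 arrays only, GFP 3 and NICD2 3, with 1 of its 2 probes. H19 and Igf2, the imprinted pair, were detected on 0 of 11 arrays in any group. Of the 16 probes, 7 were detected on every array, 3 on some and 6 on none.

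**Figure D1:**
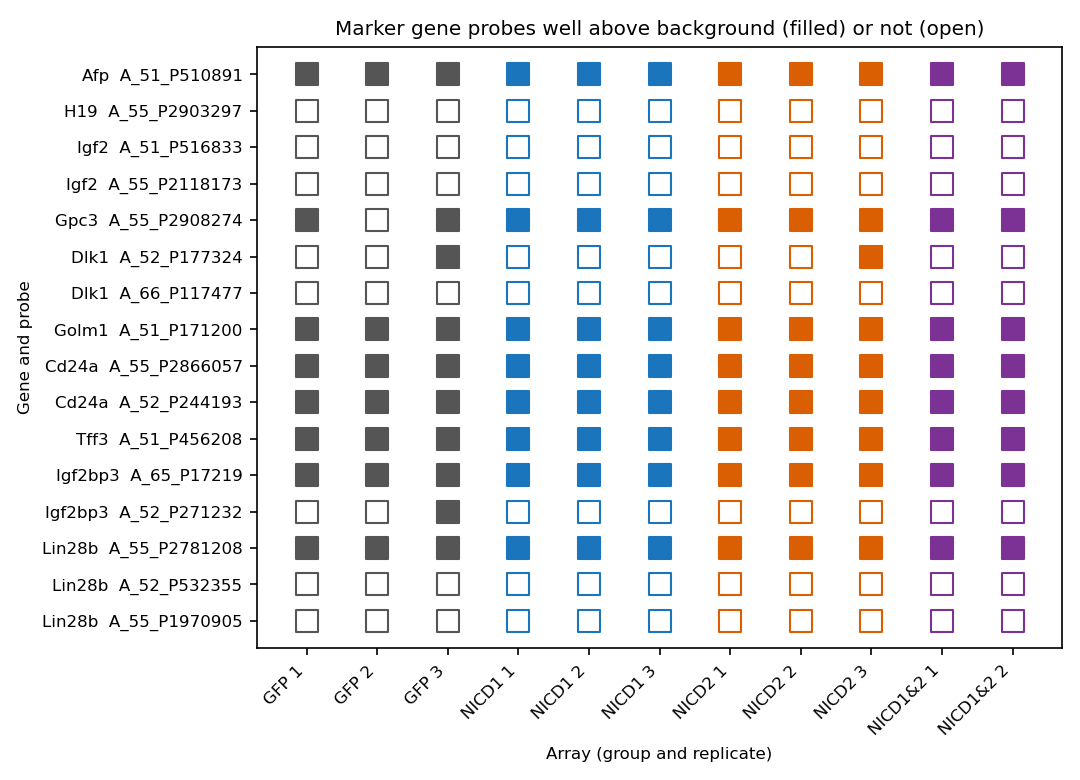
Detection of the 16 probes (rows, gene and probe name) on the 11 arrays (columns, coloured by group), where a filled square is a probe well above background and an open square one that was not. H19 and both Igf2 probes are open on all 11 arrays, Gpc3 is open on GFP 2 alone, and Dlk1 is filled on 2 arrays.

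The single H19 probe lay between -6.76 and -4.73, and the Igf2 probes lay between -6.81 and -4.56 and between -7.09 and -5.84, with no array of any group detected. The lowest signal marked as detected on each array ran from -4.95 on GFP 1 to -4.20 on NICD1&2 1, and no probe with a lower signal was marked as detected there, so no fold change was formed for these genes. For Lin28b and Igf2bp3 the probes disagreed. Lin28b was detected with A_55_P2781208, which is designed on a predicted transcript, but on 0 arrays with either of the 2 probes for its curated transcript (A_52_P532355, -6.90 to -4.88, and A_55_P1970905, -6.997 to -6.25). Igf2bp3 was detected throughout with A_65_P17219 and on GFP 3 alone with A_52_P271232 (-6.78 to -3.96). The values of Lin28b and Igf2bp3 below therefore stand for 1 probe of each gene. The tests left out 7 probes, detected on fewer than 2 arrays, and kept 9 probes of 8 genes.

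None of the 9 probes was called in any comparison with GFP at a Benjamini-Hochberg adjusted p under 0.05 in limma. The share of all 36055 tested probes called at that level was 0.00832% for NICD1, 0.0527% for NICD2 and 0.0998% for NICD1&2, or 3, 19 and 36 probes. The NICD1&2 count of 36 was 336 with normexp and quantile normalization, 224 without NICD1&2 1, 4 without NICD1&2 2 and 0 with only the groups compared. At an unadjusted p under 0.05 the counts were 0 of 9 for NICD1, 1 of 9 for NICD2 and 1 of 9 for NICD1&2, beside 5.48%, 6.81% and 14.8% of all tested probes. The study's thresholds, P under 0.15 with a fold change over 1.8, applied here to the unadjusted limma P since the test behind that P is not given in the sources used here, were met by 0, 2 and 1 of the 9 probes, beside 2.22%, 1.98% and 6.23% of all probes. These shares were 802, 715 and 2247 probes. The counts were 510, 864 and 1376 without GFP 1, 2022, 1522 and 3699 without GFP 2, and 72, 99 and 171 with normexp and quantile normalization. The arrays of the 2 groups did not overlap for 1 of 9 probes with NICD1, 1 with NICD2 and 4 with NICD1&2, beside 12.4%, 13.4% and 34.5% of all probes. The median difference over the 9 probes was 0.018 for NICD1, 0.048 for NICD2 and 0.097 for NICD1&2, where that over all tested probes was 0.015, 0.020 and 0.117. The median probe was thus 0.117 higher with NICD1&2 than with GFP, or 0.010 after quantile normalization, with the middle 50% of probes from -0.10 to 0.33, and the NICD1&2 differences below are to be read against that. The 3 comparisons share the GFP arrays.

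**Figure D2:**
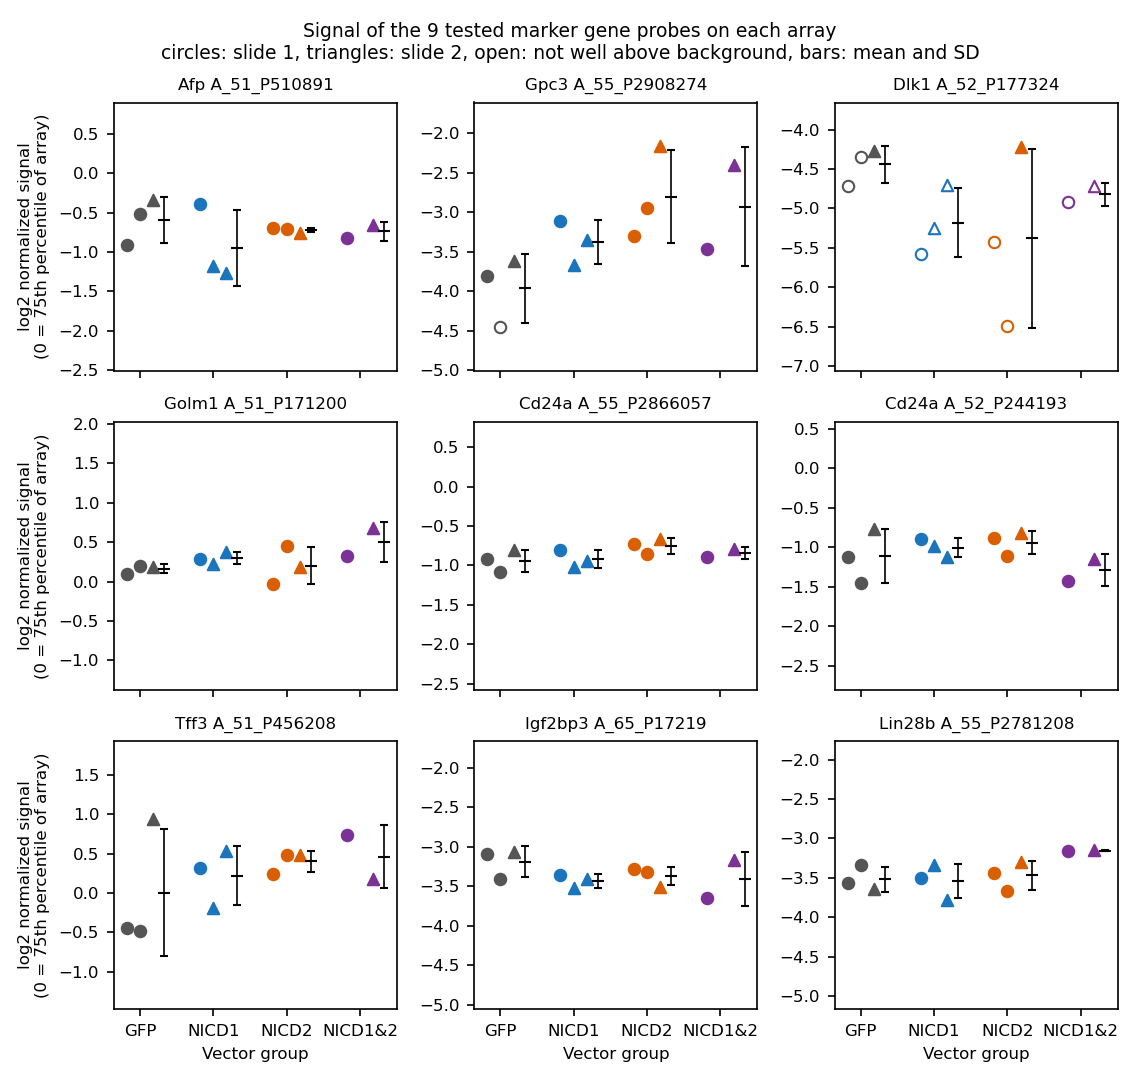
Signal of the 9 tested probes on each array (vertical axis, log2 normalized signal, all panels spanning the same range) by vector group. Points are arrays, open where not well above background, and the bar is the mean with its SD. The Gpc3 points of the NICD2 and NICD1&2 groups all lie above the 3 GFP points, while GFP 3 stands apart from the other GFP arrays for Tff3.

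Gpc3 was the one gene whose arrays all lay above the GFP arrays in both groups that received NICD2, although it passed no adjusted test. Its signal was -3.81, -4.46 and -3.62 on GFP 1, 2 and 3, the second of these not detected, and -3.30, -2.95 and -2.16 on the 3 NICD2 arrays. On the NICD1&2 arrays it was -3.47 and -2.40, and on the NICD1 arrays -3.11, -3.67 and -3.35. Every NICD2 array and both NICD1&2 arrays lay above every GFP array, while NICD1 2 lay below GFP 3. Arrays did not overlap GFP for 13.4% of all tested probes with NICD2 and for 34.5% with NICD1&2. Both comparisons use the same GFP arrays, and the share of probes apart in both was not computed.

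The mean was -3.96 ± 0.44 in GFP (SD, n = 3), -3.38 ± 0.28 in NICD1 (n = 3), -2.80 ± 0.59 in NICD2 (n = 3) and -2.93 ± 0.75 in NICD1&2 (n = 2). With NICD2 the Gpc3 difference was 1.16 on the log2 scale, 2.24-fold, with a 95% interval of 0.32 to 2.01. Its limma adjusted p was 0.539, and the exact two-sided permutation test gave 0.1, which is the lowest value possible for 3 arrays against 3. With NICD1&2 the Gpc3 difference was 1.03, 2.04-fold, with an interval of 0.087 to 1.98 (limma adjusted p = 0.310). With NICD1 it was 0.59 with an interval of -0.26 to 1.43 (limma adjusted p = 0.914). The NICD1 interval thus reached past the difference measured with NICD2. NICD1 and NICD2 differed directly by -0.57 for Gpc3 (interval -1.42 to 0.27, limma adjusted p = 1.0), a value that was -0.25 without NICD2 3, 0.015 within slide 1 and -1.35 within slide 2.

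The size of the Gpc3 difference depended on single arrays. With NICD1&2 it was 0.50 in place of 1.03 without NICD1&2 2 and 1.57 without NICD1&2 1, for NICD2 it was 0.84 without NICD2 3, and for NICD1 it was 0.34 without GFP 2. Within slide 1 the NICD2 difference was 1.01 and within slide 2 it was 1.47. For NICD1&2 the within-slide differences were 0.67 and 1.22, and for NICD1 they were 1.02 and 0.11. Background correction with an offset of 50 (normexp) followed by quantile normalization gave Gpc3 differences of 0.25 for NICD2 and 0.18 for NICD1&2, where quantile normalization without that correction gave 1.14 and 0.89. The highest Gpc3 arrays, NICD2 3 and NICD1&2 2, were also highest for the erythroid marker Hba-a1, at 8.15 and 8.63. The other arrays read 7.55 to 7.98. For Alas2, another erythroid marker, they read 5.71 and 5.76, beside 5.73 on GFP 2. The part of erythroid cells in the Gpc3 values was not tested.

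Afp, the serum marker of fetal liver and HCC, was no higher on average in any NICD group. Its signal was -0.91, -0.52 and -0.34 on the GFP arrays, -0.39, -1.18 and -1.27 on the NICD1 arrays, -0.70, -0.71 and -0.76 on the NICD2 arrays, and -0.82 and -0.65 on the NICD1&2 arrays. The 3 NICD2 arrays were nearly alike, the 3 NICD1 arrays were the most spread, and all 3 NICD groups overlapped the GFP range. The differences from GFP were -0.35 for NICD1 (interval -0.88 to 0.17), -0.13 for NICD2 (-0.66 to 0.39) and -0.15 for NICD1&2 (-0.73 to 0.44), with limma adjusted p of 0.914, 0.972 and 0.782. Leaving out 1 array moved the NICD1 value between -0.63 (without NICD1 1) and -0.19 (without NICD1 3). On a fold scale the upper ends of these intervals were 1.12, 1.31 and 1.35, so a larger gain of Afp lay outside them. The slides disagreed for NICD1, with 0.32 on slide 1 and -0.88 on slide 2. Over the alternatives, within-slide values apart, the Afp difference ran from -0.29 to -0.0065 with NICD2 and from -0.31 to -0.023 with NICD1&2.

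Golm1, the Golgi protein, varied little. Its signal was 0.097, 0.20 and 0.19 in GFP, 0.29, 0.22 and 0.37 in NICD1, -0.026, 0.45 and 0.18 in NICD2, and 0.32 and 0.68 in NICD1&2. All NICD1 and all NICD1&2 arrays lay above all GFP arrays, but by small amounts, and the NICD2 arrays lay on both sides of the GFP range. The difference was 0.13 with NICD1 (interval -0.19 to 0.45), 0.04 with NICD2 (-0.28 to 0.36) and 0.34 with NICD1&2 (-0.02 to 0.70), with limma adjusted p of 0.928, 0.991 and 0.353. The NICD1&2 value, beside 0.117 for the median probe, was 0.16 without NICD1&2 2 and 0.52 without NICD1&2 1.

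Tff3 showed its widest spread among the controls. GFP 1 and GFP 2 read -0.44 and -0.48 and GFP 3 read 0.94, while the NICD1 arrays read 0.32, -0.20 and 0.54, the NICD2 arrays 0.24, 0.48 and 0.48, and the NICD1&2 arrays 0.74 and 0.18. GFP 3 was thus the highest of the 11 arrays and GFP 1 and GFP 2 were the lowest pair. The differences were 0.22 with NICD1, 0.40 with NICD2 and 0.45 with NICD1&2, and every interval spanned 0 (limma adjusted p = 0.957, 0.930 and 0.586). Within slide 1, which holds GFP 1 and GFP 2, they were 0.78, 0.82 and 1.202. Within slide 2, where GFP 3 is the only control, they were -0.77, -0.45 and -0.76. The direction of the Tff3 difference thus depended on which control arrays were used. GFP 3 lay 1.40 above the mean of the slide 1 controls, whereas slide 2 less slide 1 was -0.15 in NICD1, 0.12 in NICD2 and -0.56 in NICD1&2, each from 1 or 2 arrays per slide, and the part of the slide in the GFP 3 value was not tested.

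Cd24a was measured with 2 probes, whose differences had opposite signs with NICD1&2. Probe A_55_P2866057 ran from -1.09 to -0.81 in GFP, from -1.02 to -0.80 in NICD1, from -0.86 to -0.67 in NICD2 and from -0.90 to -0.79 in NICD1&2. Probe A_52_P244193 ran from -1.45 to -0.77, from -1.13 to -0.89, from -1.11 to -0.83 and from -1.43 to -1.15 in the same groups. Both probes overlapped GFP in every group. The differences from GFP were 0.02, 0.19 and 0.10 with the first probe and 0.11, 0.17 and -0.18 with the second, for NICD1, NICD2 and NICD1&2 in turn, and the limma adjusted p ran from 0.657 to 0.989. Over the alternatives the second probe ran from 0.0060 to 0.35 with NICD2 and from -0.34 to -0.0045 with NICD1&2. Over both probes and all 3 comparisons the intervals ran from 0.65 to 1.49 of the GFP level.

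Dlk1 sat at the detection limit. Its probe A_52_P177324 read -4.71, -4.34 and -4.27 in GFP, -5.58, -5.25 and -4.71 in NICD1, -5.43, -6.49 and -4.22 in NICD2, and -4.92 and -4.72 in NICD1&2, and only the values of GFP 3 and NICD2 3 were above background. The measured differences were -0.74, -0.94 and -0.38 (limma adjusted p = 0.914, 0.796 and 0.734), but they were formed largely from undetected signals, with detection on 1 of 3 GFP, 0 of 3 NICD1, 1 of 3 NICD2 and 0 of 2 NICD1&2 arrays, so no fold is given. With NICD2 the probe met the study's thresholds, as a lower level, although NICD2 3 was the highest of all 11 arrays. Over the alternatives, within-slide values apart, that difference ran from -1.52 to -0.12.

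The RNA-binding pair differed little from GFP, and neither gene passed the test. Igf2bp3 read -3.09, -3.41 and -3.06 in GFP, -3.36, -3.53 and -3.41 in NICD1, -3.28, -3.32 and -3.51 in NICD2, and -3.65 and -3.17 in NICD1&2. GFP 2 lay among the NICD values, so no group separated from GFP. The differences were -0.24 with NICD1 (interval -0.59 to 0.10), -0.18 with NICD2 (-0.52 to 0.16) and -0.22 with NICD1&2 (-0.60 to 0.16), with limma adjusted p of 0.914, 0.913 and 0.521. Lin28b read -3.56, -3.34 and -3.65 in GFP, -3.50, -3.34 and -3.78 in NICD1, -3.44, -3.67 and -3.30 in NICD2, and -3.16 and -3.15 in NICD1&2. Both NICD1&2 arrays lay above the other 9 arrays. Of all tested probes, 34.5%, 30.7% and 25.2% had NICD1&2 arrays that did not overlap those of GFP, NICD1 and NICD2, in either direction. The Lin28b difference from GFP was 0.36 with NICD1&2 (interval -0.0100 to 0.73, limma adjusted p = 0.346), -0.02 with NICD1 and 0.05 with NICD2 (adjusted p = 0.990 for both).

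**Figure D3:**
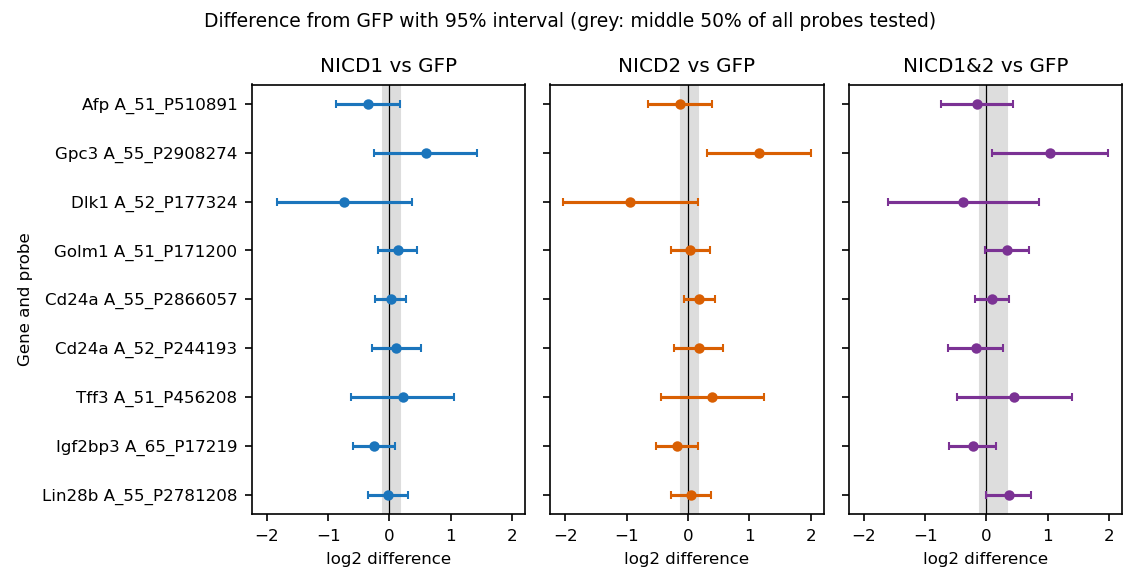
Difference of each NICD group from GFP (horizontal axis, log2) for the 9 tested probes, with the 95% interval as the bar and the middle 50% of all tested probes as the grey band. The Gpc3 intervals of NICD2 (0.32 to 2.01) and NICD1&2 (0.087 to 1.98) are the only intervals that do not span 0.

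The NICD groups were also set against each other. None of the 9 probes was called for NICD1 against NICD2, NICD1&2 against NICD1 or NICD1&2 against NICD2, where 0.00277%, 0.0139% and 0.00277% of all probes were called at an adjusted p under 0.05 in limma. At an unadjusted p under 0.05 the counts were 0, 1 and 0 of 9, beside 3.74%, 12.5% and 8.9% of all probes, the one being Lin28b, which was higher in NICD1&2 than in NICD1 by 0.38 (interval 0.013 to 0.76, limma adjusted p = 0.392). The shift of the median probe in that comparison was 0.101. For the second Cd24a probe both NICD1&2 arrays lay below all NICD1 and all NICD2 arrays, with differences of -0.29 and -0.35 (limma adjusted p = 0.545 and 0.582), beside 30.7% and 25.2% of all probes whose arrays did not overlap in these comparisons. The interaction, which asks whether both vectors together gave more or less than the sum of each alone, was called for 0 of 9 probes and for 0 of all 36055, while 7.03% of all probes and 0 of the 9 had an unadjusted p under 0.05. Its value was -0.72 for Gpc3 (interval -1.99 to 0.55) and 1.30 for Dlk1 (-0.36 to 2.95, from mostly undetected signals), with limma adjusted p of 0.764 and 0.713. Over the alternatives it ran from -1.25 to -0.17 for Gpc3 and from 0.069 to 1.88 for Dlk1.

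The partners of these genes were examined in lists of other genes of the programme, with 1 probe per gene. Apart from Spp1 and Akr1b7, described next, no gene of these lists was called against GFP in limma. The list of other liver tumour and preneoplasia markers had 20 of 22 genes tested. Of these, 0, 1 and 2 were called as higher with NICD1, NICD2 and NICD1&2 and none as lower. Of all probes, 0.00832%, 0.0444% and 0.0804% were called as higher. The list was chosen with earlier results of these data known, so its share of calls is no test of it. Its median difference was -0.11, -0.04 and 0.11. Spp1, which encodes osteopontin, a secreted protein of bile duct cells and of HCC, read 2.64 to 3.20 in GFP, 4.44 to 4.90 in NICD1, 4.44 to 4.89 in NICD2 and 4.96 to 5.29 in NICD1&2. No NICD array overlapped a GFP array. Spp1 was higher by 1.71 with NICD1 (limma adjusted p = 0.0964), by 1.81 with NICD2 (adjusted p = 0.0270) and by 2.23 with NICD1&2 (adjusted p = 0.0111). Of the 7 bile duct markers, Spp1 was the one called, and their median differences were 0.41, 0.17 and 0.32. The summed level of the other 6, of which 5 or 6 were detected per array, ran from -0.33 to -0.092 in GFP, -0.10 to 0.093 in NICD1, -0.19 to 0.14 in NICD2 and -0.059 to 0.26 in NICD1&2. Both NICD1&2 arrays lay above GFP, while NICD1 and NICD2 overlapped it. The part of bile duct cells in the values of Tff3, Cd24a and Gpc3 was not tested. Akr1b7, an aldo-keto reductase, read -3.11 to -2.49 in GFP, -2.87 to -2.37 in NICD1, -1.57 to -1.04 in NICD2 and -1.04 and -0.62 in NICD1&2, and was higher by 1.99 with NICD1&2 (adjusted p = 0.0398) and by 1.43 with NICD2 (adjusted p = 0.0997). The NICD2 call of Spp1 held in 13 of 21 alternatives, the NICD1&2 call of Spp1 in 18 and that of Akr1b7 in 8, with the highest adjusted p at 0.178, 0.316 and 0.316, each with only the groups compared in the fit.

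The imprinted gene network, which holds neighbours of Dlk1 among others, had 9 of 12 genes tested and 0 called in each comparison. Its median difference was 0.17 with NICD1, 0.25 with NICD2 and 0.23 with NICD1&2, beside 0.015, 0.020 and 0.117 over all probes. The non-coding RNA Meg3, expressed from the maternal copy of the Dlk1 region, read -2.54, -1.22 and -2.28 in GFP, -1.40, -0.53 and -0.37 in NICD2, and -1.13 and -0.42 in NICD1&2. Both NICD1&2 arrays lay above GFP and 1 NICD2 array did not. Meg3 differed from GFP by 0.14 with NICD1 (-0.12 without GFP 1), 1.25 with NICD2 and 1.24 with NICD1&2 (limma adjusted p = 0.979, 0.536 and 0.275). Rian, another maternal non-coding RNA of that region, differed by 0.75, 0.53 and 1.48 (limma adjusted p = 0.903, 0.881 and 0.209), or by 0.41, 0.18 and 1.13 without GFP 1.

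In the IGF axis all 12 genes were tested and 0 were called, with medians of 0.018, 0.056 and 0.097. Igfbp6, which binds the Igf2 protein, differed by 0.91, 0.77 and 1.28 (limma adjusted p = 0.910, 0.869 and 0.349), and single arrays set much of this. The NICD1&2 value was 0.38 without NICD1&2 2, the NICD2 value 0.36 without NICD2 3 and the NICD1 value 0.59 without GFP 2. Among the albumin family and the repressors of Afp all 8 genes were tested, 0 were called, and the medians were -0.016, 0.048 and 0.024. Alb, the adult counterpart of Afp, differed from GFP by -0.15, -0.07 and 0.16, and Gc, the vitamin D binding protein of the same family, by -0.15, -0.04 and 0.20. Of the RNA-binding factors and let-7 targets 9 of 10 genes were tested, 0 were called, and the medians were -0.13, -0.03 and 0.09. Hmga1, a chromatin protein, differed by -0.04, -0.03 and 0.09, and Dis3l2, the nuclease that degrades pre-let-7, by -0.08, -0.06 and -0.12. The Hmga1 value with NICD2 turned to 0.069 without NICD2 3, and the Dis3l2 value with NICD1&2 to 0.058 without NICD1&2 1.

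The glypicans, trefoil factors and other relatives had 9 of 10 genes tested and 0 called, with medians of 0.04, 0.00 and 0.03. Golm2, the paralog of Golm1, differed by 1.09 with NICD1 (limma adjusted p = 0.903), a value that was 0.43 without NICD1 2, and by -0.25 with NICD2 and -0.16 with NICD1&2, which turned to 0.037 without NICD2 3 and 0.17 without NICD1&2 2. Siglecg, a lectin that binds Cd24a, was detected on 1 of 3 GFP arrays, 2 of 3 NICD1, 3 of 3 NICD2 and 0 of 2 NICD1&2 arrays. Its measured differences of 0.62, 0.92 and 0.76 (limma adjusted p = 0.914, 0.774 and 0.463) rest in part on undetected signals and were 0.038, 0.33 and 0.17 without GFP 3. The fetal isoenzymes had 8 of 8 genes tested and 0 called, with medians of -0.16, -0.07 and 0.06. Bcat1, a branched-chain aminotransferase of fetal tissue, differed by 0.95, 0.54 and 1.04 (limma adjusted p = 0.903, 0.912 and 0.362), or by 0.42, 0.014 and 0.51 without GFP 1, on which it was not detected.

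**Figure D4:**
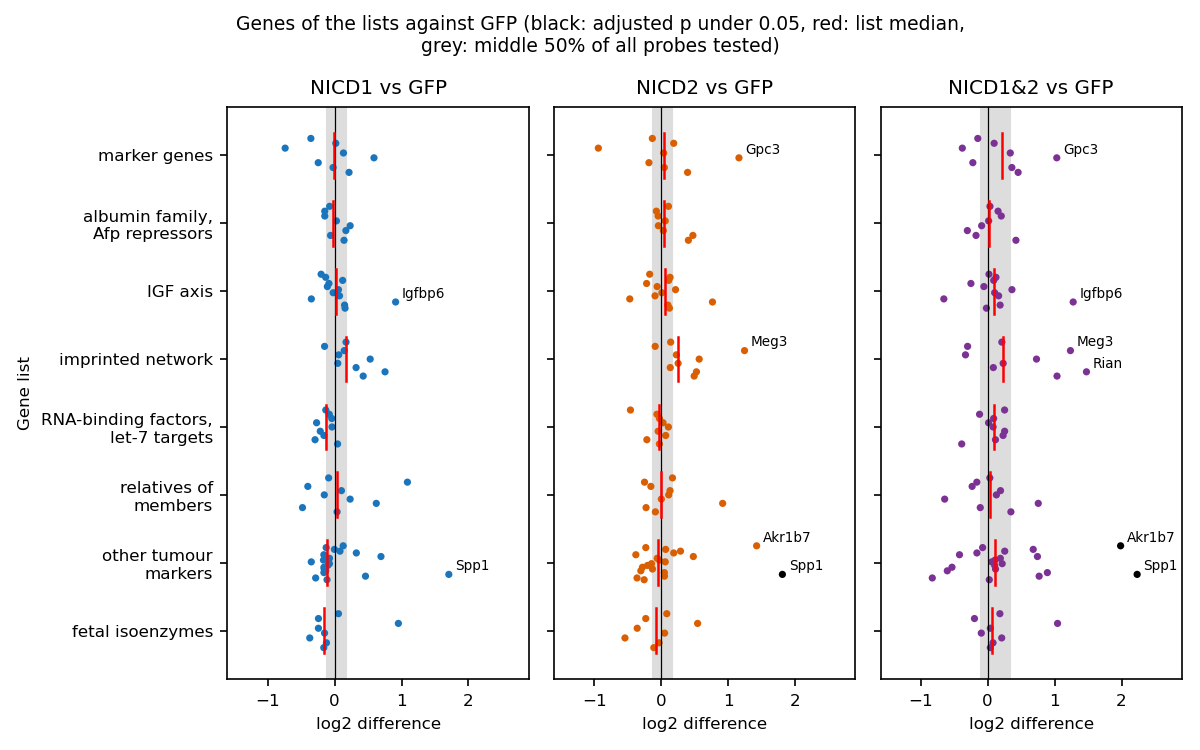
Difference from GFP (horizontal axis, log2) of each tested gene in the 10-gene set, in which Cd24a is shown by 1 probe, and in the 7 lists of related genes, by comparison. Each point is a gene, black where limma called it, the red line is the list median, and the grey band is the middle 50% of all tested probes. Only Spp1 (NICD2 and NICD1&2) and Akr1b7 (NICD1&2) are black.

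For each gene detected on all arrays, the 3 named genes most like it over the 11 arrays were taken from 16626 candidates. Afp was most like Mppe1 (Pearson r = 0.96), Ccdc30 and Zfp979, and Lin28b was most like Slc25a38 (r = 0.96), Tmc2 and Rbp3. Golm1 came closest to Klc2 (r = 0.90), Anxa8 and Uck2, Tff3 to Klf3 (r = 0.88), Dusp2 and Zfp445, and Igf2bp3 to S100a4 (r = 0.91), 1700012D01Rik and Serpinb9. The Cd24a probes had different neighbours, Thbs1 (r = 0.86), Cox6a2 and Sprr1a for the first and Kdm1a (r = 0.88), Krit1 and Atg9b for the second. These values describe 11 arrays that share groups and slides. As the highest of this many candidates they are high by selection, and the values that other probes reach were not computed.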

How the data were processed

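RNA of mouse liver was measured on 11 Agilent 1-colour arrays. The authors extracted spot intensities with Agilent Feature Extraction 11.5.1.1 (background and spatial trend subtracted), divided each array by its 75th percentile and took the log2, and this deposited table of log2 values was the main input. It equalled log2 of the deposited scanner intensities less a constant per array for probes with 1 spot. The array design was annotated on an earlier genome build than the RefSeq tables used here. The methods and the sample labels name different RNA kits, and the array format in the methods is smaller than the 62976 spots per array found.

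Probes were named through RefSeq accessions (32994 of 56605 had a gene name), and detection was the software's well-above-background flag. Probes detected on at least 2 of 11 arrays (36055) entered a single limma fit (version 3.58.1, R 4.3.3; lmFit, then eBayes) that gave each group its mean, with Benjamini-Hochberg adjustment over all of them. The 95% intervals are not adjusted. Single values were also compared by exact two-sided permutation of arrays, whose smallest p is 0.1. A bound set the brighter group against the lowest detected signal of each array, or the probe's own where higher. The code was tested on simulated data. The genes and lists were chosen with earlier results of these data known. Within a list each gene was read from 1 probe, that of highest mean signal. Of lists, genes called and, where unadjusted P was under 0.15, the fold over 1.8 and groups apart, the 5 highest and 5 lowest per comparison could be named, otherwise the 2 of highest signal. All genes of the 10 were described. The number of arrays limits the precision. Alternatives covered normalization, background, filter, model, slide, replicate block, call rule and each array left out.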

Additional observations from a re-analysis of the deposited data

How the results depend on the processing

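None of the 9 tested probes was called at an adjusted p under 0.05 in any of the 6 comparisons or the interaction under the alternatives run for it (Gpc3 and Dlk1 dropped out where detection on all 11 arrays was required, and the interaction needs all groups), and the lowest adjusted p of any of them was 0.121 (Gpc3, NICD1&2 against GFP, without NICD1&2 1), with 0 calls under the replicate block too. Leaving out 1 array at a time kept the count at 0 in every comparison. With the study's thresholds on the unadjusted limma P the count for NICD2 against GFP was 2 (Gpc3 and Dlk1), that for NICD1&2 against GFP was 1 (Gpc3) and that for the interaction was 1 (Dlk1). Of the 63 differences, 39 kept their direction under every alternative, within-slide values apart, and the cause was not tested for those that did not.

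With normexp background correction and quantile normalization the differences that turned were Afp, NICD1&2 against NICD2 (0.0024), Dlk1, NICD1&2 against NICD1 (-0.048) and against NICD2 (-0.023), Igf2bp3, NICD1 against NICD2 (0.0056) and NICD1&2 against NICD2 (0.0072), Lin28b, NICD1 against GFP (0.00058), and Tff3, NICD1&2 against NICD2 (-0.031). With the slide as a block they were Afp, NICD1&2 against NICD2 (0.00057), Cd24a A_55_P2866057, NICD1 against GFP (-0.0020), and Dlk1, NICD1 against NICD2 (-0.045). Igf2bp3, NICD1&2 against NICD1, was -0.050 with the 75th percentile over probes detected on all arrays and -0.11 with quantile normalization. Array weights gave 0.0042 for Lin28b, NICD1 against GFP, and 0.040 for the Tff3 interaction.

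With the replicate number as a block, Gpc3, NICD1&2 against NICD2, was 0.039 and the Tff3 interaction 0.066. Arrays of the same number correlated in their residuals by -0.41 to 0.17 (median 0.036, 6 of 15 over 0.1). Arrays of different numbers did so by -0.29 to 0.46 (median 0.010, 7 of 30 over 0.1). The residuals of the 2 NICD1&2 arrays mirror each other, so pairs with them cannot inform on this. The numbers were not taken to pair the samples.

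Leaving out 1 array at a time turned the following, given as lowest to highest: Afp -0.10 to 0.070 (NICD1&2 against NICD2), Cd24a A_52_P244193 -0.057 to 0.28 and A_55_P2866057 -0.057 to 0.084 (NICD1 against GFP), Dlk1 -0.36 to 0.78 (NICD1 against NICD2), and Golm1 -0.020 to 0.22 (NICD1 against NICD2), -0.084 to 0.15 (NICD2 against GFP) and -0.014 to 0.35 (interaction). For Gpc3 the ranges were -0.090 to 0.98 (NICD1&2 against NICD1) and -0.66 to 0.40 (NICD1&2 against NICD2). For Igf2bp3 they were -0.46 to 0.020 (NICD1&2 against GFP), -0.22 to 0.26 (NICD1&2 against NICD1), -0.28 to 0.20 (NICD1&2 against NICD2) and -0.036 to 0.45 (interaction). For Lin28b they were -0.12 to 0.096 (NICD1 against GFP), -0.17 to 0.048 (NICD1 against NICD2) and -0.036 to 0.15 (NICD2 against GFP). For Tff3 they were -0.027 to 0.68 (NICD1 against GFP), -0.34 to 0.028 (NICD1 against NICD2), -0.042 to 0.52 (NICD1&2 against NICD1), -0.22 to 0.34 (NICD1&2 against NICD2) and -0.62 to 0.12 (interaction). Where an arm was left with 1 array, it was assumed to vary like the other groups. Over all tested probes the number called ranged over the settings from 0 to 4 for NICD1, 5 to 72 for NICD2 and 0 to 336 for NICD1&2 against GFP. The signal over background limits what can be said of H19, Igf2 and Dlk1.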

Other observations

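Markers of other cell types and of cycling cells were read from the same arrays, with 1 probe per gene. Of the 5 proliferation markers 4 were tested, and Birc5, the survivin gene of dividing cells, was the one called. The list medians were 0.20 with NICD1, -0.23 with NICD2 and -0.015 with NICD1&2. Mki67 differed by -0.011, -0.14 and -0.31 and Top2a by -0.48, -0.60 and -0.44, neither called. Birc5 read -0.99 to -0.75 in GFP, -0.54 to -0.40 in NICD1, -0.23 to 0.12 in NICD2 and 0.10 and 0.12 in NICD1&2, and no NICD array overlapped a GFP array. Birc5 was higher by 0.97 with NICD1&2 (limma adjusted p = 0.0488), and the differences with NICD2 and NICD1 were 0.86 and 0.41 (adjusted p = 0.0631 and 0.769). The Birc5 call held in 4 of 21 alternatives, with an adjusted p of 0.015 to 0.319. Cdk1, the mitotic kinase, differed by 0.91 with NICD1, -0.33 with NICD2 and 0.28 with NICD1&2 (limma adjusted p = 0.781, 0.917 and 0.648), and its NICD1&2 value was 0.79 without NICD1&2 2, where it was not detected, and -0.22 without NICD1&2 1. Of the 5 endothelial markers 2 were higher and 3 lower on average with NICD1, 3 and 2 with NICD2, and 2 and 3 with NICD1&2, with medians of -0.0010, 0.025 and -0.095, and 0 were called in limma. Among them Lyve1, a marker of liver sinusoidal and lymphatic endothelium, differed by 0.30, 0.86 and 0.93 (limma adjusted p = 0.914, 0.285 and 0.162), and its NICD1 value was 0.17 without GFP 2. Of the 4 neutrophil markers tested, the medians were -0.32, -0.14 and -0.08, with all 4 lower on average with NICD1 and NICD1&2 and 2 higher and 2 lower with NICD2, and 0 were called in limma. Retnlg, the one of these that the naming rule took, differed by -0.99, -0.62 and -1.11 (limma adjusted p = 0.741, 0.715 and 0.189), and its NICD2 value was -0.38 without GFP 1. No marker of hepatocytes, erythroid cells, lymphocytes, neutrophils, Kupffer cells, stellate cells, endothelium or exocrine pancreas was called against GFP in limma. With NICD1, NICD2 and NICD1&2 in turn, 6, 3 and 1 of 8 hepatocyte markers were lower on average (medians -0.12, 0.0093 and 0.14). So were 6, 6 and 4 of 6 lymphocyte markers (-0.21, -0.11 and -0.034) and 5, 4 and 3 of 5 Kupffer cell markers (-0.33, -0.16 and -0.0055). Of 5 stellate cell markers 4, 5 and 5 were higher (0.12, 0.24 and 0.19).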
